A study of Homo sapiens with 9 samples.

Results

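The 7 *UGT2B* genes described here encode enzymes that conjugate androgens and other lipophilic compounds with glucuronic acid. They were taken by symbol, as *UGT2B4*, *UGT2B7*, *UGT2B10*, *UGT2B11*, *UGT2B15*, *UGT2B17* and *UGT2B28*, and all 7 were found among the 19984 protein-coding genes of the table. RNA was sequenced from LNCaP, a line of human prostate cancer cells that respond to androgen. One group was the clone del-4 and another the clone del-56, both labelled as *EPCART* knockouts, in which CRISPR-Cas9 had removed the promoter and the first exons of *EPCART*, a long noncoding RNA gene of chromosome 2. The reference was 1 wild-type clone (WT), from the same CRISPR-Cas9 work and without that deletion, and the study names 3 biological replicates of each clone, each grown in normal serum-containing medium for 48 hours with no added agent. Each line is a single clone, so the spread between replicates is that between cultures of 1 clone, and a difference from WT cannot be told apart from a difference between clones of other origin. The same WT libraries served both comparisons.

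UDP-glucuronosyltransferases of the UGT2B family sit in the membrane of the endoplasmic reticulum and transfer glucuronic acid from UDP-glucuronic acid to a hydroxyl group of their substrate. A glucuronidated androgen is no longer active as a hormone and leaves the cell through export pumps. UGT2B15 and UGT2B17 are the enzymes best known for removing dihydrotestosterone and its metabolites in prostate cells, and in LNCaP cells their genes are known to be repressed by androgen.

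The genes form a cluster on the long arm of chromosome 4. In GENCODE version 44 (GRCh38) their order is *UGT2B17* (ENSG00000197888.3, chr4:68537173-68576413, minus strand), *UGT2B15* (ENSG00000196620.10, chr4:68646597-68670652, minus), *UGT2B10* (ENSG00000109181.12, chr4:68815994-68832023, plus), *UGT2B7* (ENSG00000171234.14, chr4:69051363-69112987, plus), *UGT2B11* (ENSG00000213759.10, chr4:69199951-69214748, minus), *UGT2B28* (ENSG00000135226.18, chr4:69280475-69295050, plus) and *UGT2B4* (ENSG00000156096.14, chr4:69480165-69526014, minus). The canonical transcript of *UGT2B17* has 7 exons and those of the other 6 genes have 6 each.

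The bases before the transcription start are shown because these genes lie in one cluster, were lower in the deletion clones by unequal amounts, and differ in how alike their promoters are. RefSeq promoter sequences (GRCh38.p14) were at hand for 4 of the 7 genes, and each line gives the 250 bases before the start, read along the strand of the gene. Capitals mark the core motif bound by forkhead factors such as FOXA1, TGTTTA on either strand, which here reads TAAACA.
UGT2B15: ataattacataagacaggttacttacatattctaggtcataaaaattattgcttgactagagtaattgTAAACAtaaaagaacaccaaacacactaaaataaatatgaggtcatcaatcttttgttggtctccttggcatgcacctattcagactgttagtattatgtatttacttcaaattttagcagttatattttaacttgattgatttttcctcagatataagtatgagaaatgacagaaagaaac
UGT2B10: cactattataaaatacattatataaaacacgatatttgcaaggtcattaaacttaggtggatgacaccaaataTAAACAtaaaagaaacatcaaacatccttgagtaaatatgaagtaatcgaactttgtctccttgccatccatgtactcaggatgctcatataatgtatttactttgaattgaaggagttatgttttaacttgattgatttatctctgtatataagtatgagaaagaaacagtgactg
UGT2B7: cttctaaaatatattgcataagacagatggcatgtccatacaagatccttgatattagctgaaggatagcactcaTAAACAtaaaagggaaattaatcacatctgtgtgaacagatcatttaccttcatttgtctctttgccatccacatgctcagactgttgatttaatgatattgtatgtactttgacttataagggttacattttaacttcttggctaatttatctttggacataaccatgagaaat
UGT2B11: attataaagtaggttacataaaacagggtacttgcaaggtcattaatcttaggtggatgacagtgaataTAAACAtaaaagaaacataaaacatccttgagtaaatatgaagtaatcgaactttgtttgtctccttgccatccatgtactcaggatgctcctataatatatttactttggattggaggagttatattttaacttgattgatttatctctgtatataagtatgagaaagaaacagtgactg
They lie at chr4:68670653-68670902 (minus strand) for *UGT2B15*, chr4:68815744-68815993 (plus) for *UGT2B10*, chr4:69096224-69096473 (plus) for *UGT2B7* and chr4:69214749-69214998 (minus) for *UGT2B11*. The RefSeq start of *UGT2B7* lies inside the longer GENCODE span of that gene. The stretches of *UGT2B10* and *UGT2B11* shared 91.6% of their bases in a global alignment, and the other 5 pairs shared between 62.8% and 72.8%. The forkhead core occurred once in each of the 4, against 11.0% of the 35116 RefSeq promoter stretches of this length. These stretches belong to paralogs and are alike in sequence, so the 4 matches are not independent of each other. The longer form TGTTTAC, which contains the core, occurred in *UGT2B15* alone of the 4 (3.0% of all stretches), and so did the steroid hormone response half-site AGAACA (12.4%). The full element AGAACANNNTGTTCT was in none of the 4 and in 1 stretch of all. TATAAA was found 3 times in *UGT2B10*, 2 times in *UGT2B11* and not in the other 2 (10.7% of all stretches). In both genes 1 of these matches shares bases with the marked forkhead core, so it is not separate from that result. Their other TATAAA matches lie at the end of the stretch far from the transcription start. Both strands were searched, the motifs were chosen with the sequences in view, and a match describes letters and not binding.

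Because these genes are close paralogs, some reads cannot be assigned to 1 of them with certainty. Over the coding sequence, *UGT2B11* and *UGT2B28* were 97.0% identical, *UGT2B15* and *UGT2B17* 96.5%, *UGT2B10* and *UGT2B11* 94.8%, and the least alike pair, *UGT2B15* and *UGT2B28*, 84.1%. Of all windows of 150 bases, the length of 1 read, in the canonical transcript, 4.0% of those of *UGT2B17* and 4.7% of those of *UGT2B15* occurred unchanged in the other gene, and no window of the remaining 5 genes occurred in another member. Of the windows of *UGT2B11* at that length, 7.9% occurred in genes other than the 7 members. These were the pseudogene *UGT2B25P* and ENSG00000250696, a noncoding RNA gene that itself covers *UGT2B11*, so this share is not one of paralogs alone. Of windows of 50 bases, 47.8% in *UGT2B11*, 35.2% in *UGT2B28*, 27.1% in *UGT2B15*, 23.3% in *UGT2B17*, 22.0% in *UGT2B10*, 6.7% in *UGT2B7* and 3.2% in *UGT2B4* occurred in a transcript of another gene, pseudogenes included. For *UGT2B11* the same noncoding RNA gene was also among the matches at 50 bases. How reads with several positions were treated is not given in the sources used here.

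The counts also appear to have been made over whole gene spans and without regard to strand, although the libraries were strand-specific. Among 183 pairs of expressed genes in which 1 lies inside the other on the opposite strand and no exons overlap, the outer gene had at least the count of the inner gene in all 9 libraries in 182 pairs (99.5%). On the same strand, this held in 34 of 38 such pairs (89.5%), so the match was not complete. The noncoding RNA gene ENSG00000250696 (chr4:69182100-69216766, plus strand) covers all 14798 bases of *UGT2B11*, so its reads and those of *UGT2B11* cannot be told apart. Pseudogenes cover 3494 bases of *UGT2B7* and 734 bases of *UGT2B4*, and no other protein-coding gene overlaps a member.

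The reads on genes numbered 91074556 in the shallowest library, del-56 replicate 3, and 118877134 in the deepest. A normalized count is a read count divided by the size factor of its library, between 0.825 and 1.06 here. Most genes were counted by both mates of a fragment, since 83.8% of values from 1 to 20 reads were even. The luminal prostate markers were present in every clone, with 9 of 9 above 3 reads in each library and a summed normalized count between 351112 and 371821. Markers of other cell types were mixed. The basal marker *KRT5*, the neuroendocrine marker *INSM1*, the endothelial marker *CDH5* and the T cell marker *CD3E* had at most 3 reads in every library. The basal marker *KRT14* had at most 64 reads in any library. The endothelial marker *VWF* had mean normalized counts of 596 for WT, 304 for del-4 and 641 for del-56, and fell by 0.97 on the log2 scale in del-4 (adjusted p = 1.5e-06, limma). The fibroblast marker *COL1A1* had 991, 1253 and 1258 in the same order and rose by 0.33 in del-4 (adjusted p = 0.00368) and by 0.34 in del-56 (adjusted p = 0.00184), while *COL1A2* had at most 4 reads in any library. The neuroendocrine marker *SYP* fell by 0.60 in del-4 (adjusted p = 0.0358). The monocyte marker *CD14*, with at most 14 reads in any library, rose by 2.91 in del-56 (adjusted p = 0.0106). Their part in the results for the family was not tested. The table covers protein-coding genes, and *EPCART* RNA was therefore not analysed here. In bulk RNA, fewer cells that express a gene and less of its RNA per cell cannot be told apart.

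The means of all 7 genes were lower in the deletion clones than in WT. The fitted reduction was 1.21-fold for *UGT2B7* in del-56 at the least and 4.88-fold for *UGT2B11* in del-4 at the most. In del-4, 7 of 7 genes fell at an adjusted p under 0.05, against 20.2% of the 17401 genes tested. In del-56, 6 of 7 fell, against 20.5% of 17481 genes, and *UGT2B7* did not pass. The adjusted p comes from limma fitted to log2 values (normalized count plus 1), with Benjamini-Hochberg adjustment over all genes tested, and all fold changes below are on that log2 scale. Across the 7 genes the log2 fold changes had medians of -1.15 (del-4) and -0.58 (del-56), while over all genes the medians were -0.003 and -0.001. In both comparisons all 3 deletion libraries lay below all 3 WT libraries for each of the 7 genes. Of all genes, 24.8% lay entirely below WT in del-4, and likewise 24.8% in del-56.

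**Figure D1:**
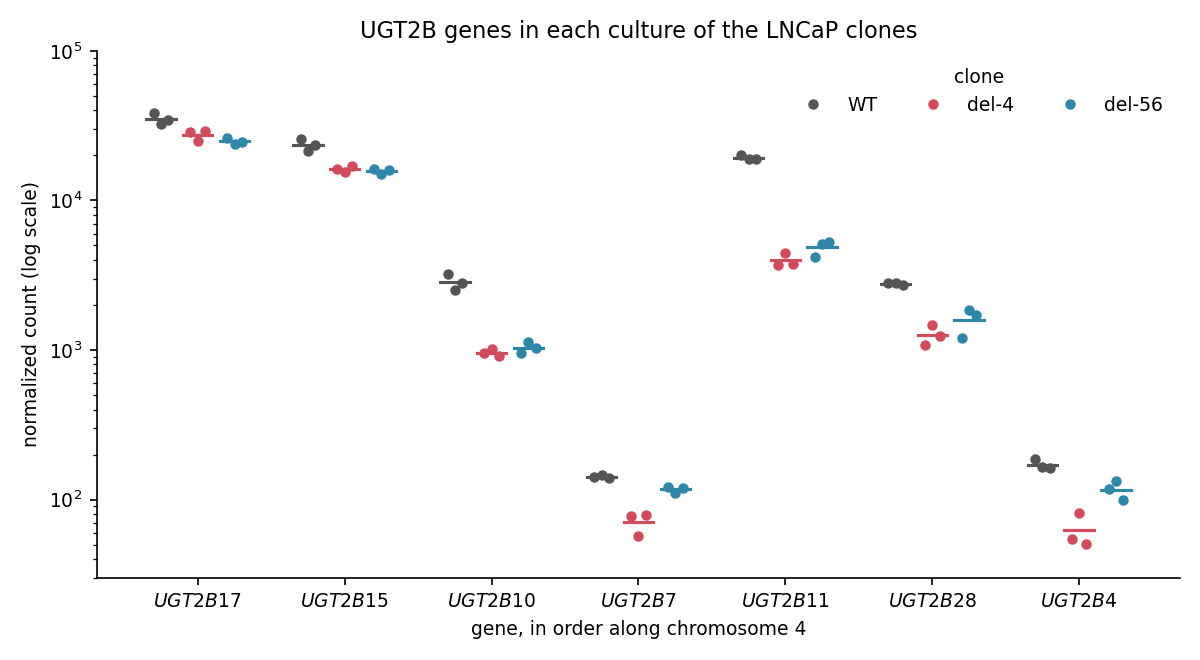
Normalized count (log scale) of each *UGT2B* gene in every culture of WT, del-4 and del-56, with genes in their order along chromosome 4; points are cultures and short lines are means of 3. *UGT2B11* parts most from WT, with 18786 to 20246 in WT and 3720 to 5264 in the deletion clones, whereas *UGT2B17* and *UGT2B15* stay close to WT on this scale.

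The androgen-conjugating enzymes UGT2B17 and UGT2B15 had the most abundant transcripts of the family. The normalized count of *UGT2B17* was 38658, 32269 and 34527 in the WT cultures, 28565, 25120 and 28919 in those of del-4, and 26200, 23785 and 24513 in those of del-56. Every culture of del-4 and del-56 was below the lowest WT culture, and the clones del-4 and del-56 overlapped. *UGT2B17* fell by 0.35 on the log2 scale in del-4 (SE 0.058, adjusted p = 8.7e-05) and by 0.50 in del-56 (SE 0.055, adjusted p = 3.0e-06). By these fitted log2 values, it was 1.28-fold lower than WT in del-4 and 1.41-fold lower in del-56.

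*UGT2B15*, its nearest paralog by coding identity, had normalized counts of 25701, 21257 and 23492 in the WT cultures, 16236, 15559 and 16886 in those of del-4, and 16102, 15114 and 15896 in those of del-56. The deletion clones lay on top of each other and below every WT culture. *UGT2B15* fell by 0.53 in del-4 (SE 0.052, adjusted p = 2.5e-07) and fell by 0.58 in del-56 (SE 0.054, adjusted p = 5.1e-07), or 1.44-fold and 1.49-fold by the fitted log2 values. Within a library the log2 ratio of *UGT2B17* to *UGT2B15* was 0.58 ± 0.02 (SD, n = 3) in WT, against 0.76 ± 0.06 in del-4 and 0.66 ± 0.04 in del-56. In an exact two-sided permutation test of 3 libraries against 3 each deletion clone gave p = 0.1 against WT, the smallest value such a test allows. Ratios of 5 pairs of members were tested in this way in both clones, which makes 10 tests, and a p of 0.1 became 0.111 after Benjamini-Hochberg adjustment over them. In every deletion library the ratio was above that of every WT library, so *UGT2B15* was slightly more reduced than *UGT2B17*.

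*UGT2B28* encodes another steroid-conjugating member, and *UGT2B11*, its closest relative in coding sequence, an enzyme whose substrates are less well known. The normalized count of *UGT2B11* was 20246, 18959 and 18786 in the WT cultures, 3720, 4472 and 3736 in those of del-4, and 4202, 5103 and 5264 in those of del-56. No deletion culture came near the WT range. *UGT2B11* fell by 2.29 in del-4 (SE 0.057, adjusted p = 2.3e-15) and fell by 2.0 in del-56 (SE 0.065, adjusted p = 2.1e-12), or 4.88-fold and 4.0-fold by the fitted log2 values. It was the most reduced of the 7 genes in both comparisons, and a log2 fold change of -1 or less was reached in del-4 by 5.66% of all genes and in del-56 by 5.29%.

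For *UGT2B28* the cultures gave 2793, 2819 and 2715 in the WT cultures, 1079, 1470.1 and 1234 in those of del-4, and 1200.3, 1840.4 and 1703 in those of del-56. WT varied little, and the deletion cultures varied more but remained below it. *UGT2B28* fell by 1.15 in del-4 (SE 0.083, adjusted p = 4.3e-09) and fell by 0.84 in del-56 (SE 0.11, adjusted p = 1.7e-05). The log2 ratio of *UGT2B11* to *UGT2B28* was 2.80 ± 0.05 (SD, n = 3) in WT, against 1.66 ± 0.11 in del-4 and 1.64 ± 0.17 in del-56 (exact two-sided permutation p = 0.1 for each clone against WT, the smallest possible). The ratio in every deletion library was below that in every WT library. The fitted reduction of *UGT2B11* was larger than that of its closest paralog, and their 95% intervals did not overlap. In del-4 they were -2.41 to -2.17 for *UGT2B11* and -1.32 to -0.97 for *UGT2B28*. In del-56 they were -2.14 to -1.86 and -1.07 to -0.60 in the same order.

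*UGT2B10* encodes an enzyme known for attaching glucuronic acid to nitrogen atoms, as in nicotine and cotinine. Its normalized count was 3226, 2513 and 2791 in the WT cultures, 954, 1014 and 913 in those of del-4, and 948, 1129 and 1034 in those of del-56. Both deletion clones stood at about one level, well under WT. *UGT2B10* fell by 1.56 in del-4 (SE 0.079, adjusted p = 3.8e-11) and fell by 1.45 in del-56 (SE 0.086, adjusted p = 2.4e-09), or 2.95-fold and 2.73-fold by the fitted log2 values. After *UGT2B11* it had the largest fitted reduction in both clones, although in del-4 its interval (-1.73 to -1.39) lay within that of *UGT2B4* (-1.97 to -0.98). Relative to *UGT2B15* in the same library, the log2 ratio of *UGT2B10* was lower than in WT by a mean difference of -1.03 for del-4 and -0.87 for del-56, and that of *UGT2B11* by -1.76 and -1.42 (exact two-sided permutation p = 0.1 for each, the smallest possible). For *UGT2B28* the same difference was -0.62 in del-4 (p = 0.1, exact permutation) and -0.26 in del-56 (p = 0.4, exact permutation, also 0.4 after adjustment), and the del-56 and WT libraries overlapped.

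*UGT2B7*, whose enzyme has broad substrates that include androgens, estrogens and morphine, and *UGT2B4*, best known for bile acids, were the least abundant members. *UGT2B7* had normalized counts of 141, 147 and 140 in the WT cultures, 77.8, 56.8 and 79.4 in those of del-4, and 122, 110.4 and 120 in those of del-56. The 3 clones did not overlap, and del-4 was the lowest. *UGT2B7* fell by 1.00 in del-4 (SE 0.223, adjusted p = 0.00142). In del-56 the log2 fold change of -0.28 did not pass (SE 0.189, 95% interval -0.68 to 0.13, adjusted p = 0.276). That interval still holds a reduction of 0.68 on the log2 scale.

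The normalized count of *UGT2B4* was 188, 164 and 163 in the WT cultures, 54.7, 81.7 and 50.2 in those of del-4, and 117, 133 and 99.4 in those of del-56. The 3 clones did not overlap, with del-4 lowest and WT highest. *UGT2B4* fell by 1.48 in del-4 (SE 0.235, adjusted p = 5.8e-05) and fell by 0.56 in del-56 (SE 0.194, adjusted p = 0.0298). The call in del-56 was lost without del-56 replicate 3 (adjusted p = 0.0999), WT replicate 1 (adjusted p = 0.096), WT replicate 2 (adjusted p = 0.0594) or WT replicate 3 (adjusted p = 0.0576), with quantile normalization (adjusted p = 0.0584) and in 1 fit of all 9 libraries (adjusted p = 0.0589). Over all alternatives its adjusted p in del-56 lay between 0.0213 and 0.0999, and its log2 fold change between -0.66 and -0.45.

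**Figure D2:**
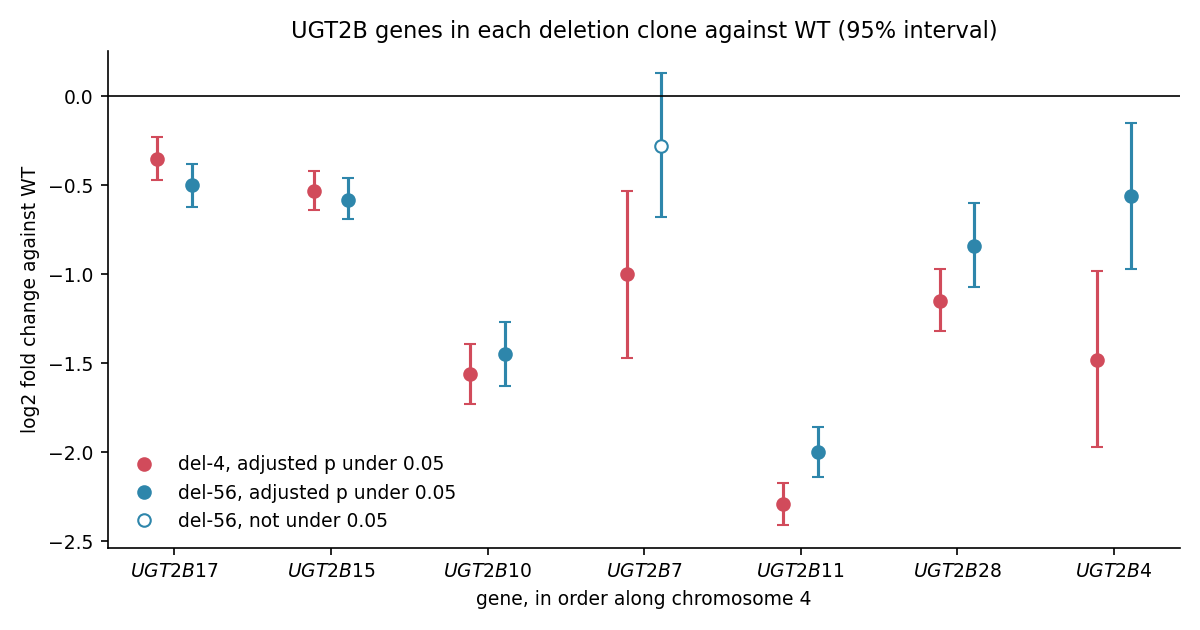
Log2 fold change of each *UGT2B* gene against WT in del-4 and del-56, with genes in chromosomal order and bars for the 95% interval from limma; the open point did not reach an adjusted p under 0.05. The values run from -0.28 for *UGT2B7* in del-56 to -2.29 for *UGT2B11* in del-4, and both clones share the WT libraries.

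Against WT, the calls of the members were the same after all libraries were rescaled to the same total, while the split of calls over all genes was not. In del-4, 3517 genes were lower and 3565 higher than WT, and after this rescaling the split was 4932 lower and 2364 higher. The same 7 members were called lower under either scaling. In del-56 the split was 3580 lower and 3358 higher (19.2% of genes were higher), and 4005 lower and 2751 higher after rescaling, again with the same 6 members called lower. No member was called higher in either clone, against 20.5% of genes in del-4.

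Levels are compared between genes per kilobase of canonical transcript. In WT the order was *UGT2B17* at 14168 ± 1306 (SD, n = 3), *UGT2B15* at 11004 ± 1041, *UGT2B11* at 9183 ± 379, *UGT2B28* at 1495 ± 29.2, *UGT2B10* at 1031 ± 130.2, *UGT2B4* at 81.7 ± 6.57 and *UGT2B7* at 75.4 ± 2.0 normalized counts per kilobase. The WT libraries of *UGT2B4* and *UGT2B7* overlapped, and those of the other neighbours in that order did not. In del-4 the levels were 11098 ± 846 for *UGT2B17*, 7604 ± 311 for *UGT2B15*, 1889 ± 204 for *UGT2B11*, 679 ± 106 for *UGT2B28*, 348 ± 18.4 for *UGT2B10*, 37.8 ± 6.68 for *UGT2B7* and 29.6 ± 8.10 for *UGT2B4*. *UGT2B11*, which in WT stood close under *UGT2B15*, was thus well apart from it, and only *UGT2B7* and *UGT2B4* overlapped. In del-56 they were 10009 ± 499, 7359 ± 244, 2307 ± 272, 851 ± 181, 376 ± 32.9, 62.3 ± 3.30 and 55.5 ± 7.89 in the same order, with the same overlap. Since introns appear to have been counted too, these levels per length are approximate.

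Added up without regard to length, the 7 genes gave a normalized count of 90951, 78128 and 82614 in the WT cultures, 50685, 47773 and 51816 in those of del-4, and 48892, 47214 and 48629 in those of del-56. The mean sum was 0.597 of WT in del-4 and 0.575 of WT in del-56. *UGT2B11* made up 23.1% ± 1.05 (SD, n = 3) of the sum in WT, against 7.97% ± 1.21 in del-4 and 10.1% ± 1.28 in del-56. *UGT2B15* and *UGT2B17* together made up 69.8% ± 1.18 in WT, against 87.3% ± 1.87 in del-4 and 84.0% ± 2.21 in del-56. So this androgen-conjugating pair was a larger part of a smaller total in both deletion clones.

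**Figure D3:**
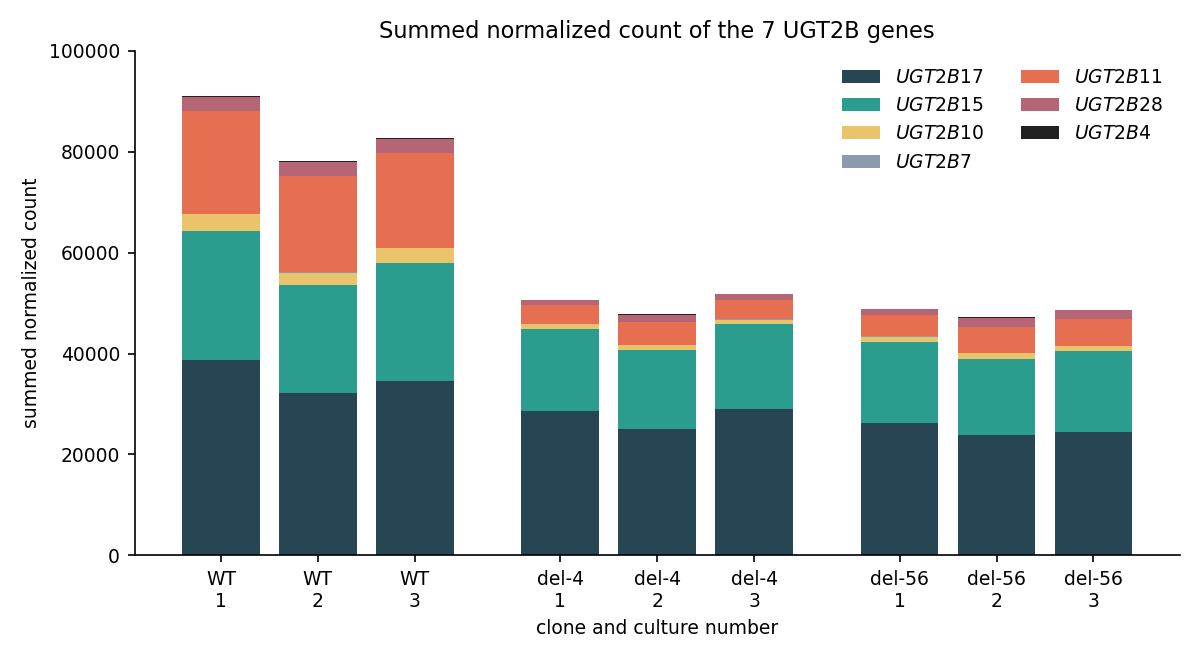
Summed normalized count of the 7 *UGT2B* genes in each of the 9 cultures, split by gene. The WT bars reach 78128 to 90951 and the deletion bars 47214 to 51816, and the segment of *UGT2B11* shrinks most.

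The members did not all vary together among cultures of 1 clone. In del-4, replicate 2 had the lowest counts of *UGT2B17*, *UGT2B15* and *UGT2B7* and the highest of *UGT2B10*, *UGT2B11*, *UGT2B28* and *UGT2B4*. In del-56, replicate 1 had the highest counts of *UGT2B17*, *UGT2B15* and *UGT2B7* and the lowest of *UGT2B10*, *UGT2B11* and *UGT2B28*. These are descriptions of 3 cultures each.

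Between the deletion clones, 4 of 7 members differed at an adjusted p under 0.05 (limma). *UGT2B17* was higher in del-4 than in del-56 by 0.15 on the log2 scale (SE 0.050, adjusted p = 0.0461), where 10.9% of 17447 genes were higher. *UGT2B11* was lower in del-4 by a log2 difference of -0.29 (SE 0.077, adjusted p = 0.0133), *UGT2B7* by -0.73 (SE 0.235, adjusted p = 0.0373) and *UGT2B4* by -0.92 (SE 0.258, adjusted p = 0.0178), where 9.0% of genes were lower. The libraries of *UGT2B7* and *UGT2B4* did not overlap between the clones and those of *UGT2B17* and *UGT2B11* did. The share of all genes without overlap between these clones was not computed, so no weight is placed on this. *UGT2B15* (log2 difference 0.05, 95% interval -0.04 to 0.13, adjusted p = 0.466), *UGT2B10* (-0.11, 95% interval -0.29 to 0.07, adjusted p = 0.426) and *UGT2B28* (-0.31, 95% interval -0.58 to -0.04, adjusted p = 0.097) did not pass. The count of 4 fell to 0 without del-4 replicate 1, del-4 replicate 3 or del-56 replicate 2, and to 1 without del-56 replicate 3. The call of *UGT2B17* was also lost after rescaling to the same total (adjusted p = 0.116), with quantile normalization (adjusted p = 0.151), with no filter (adjusted p = 0.0644), with a pseudocount of 0.5 (adjusted p = 0.05 when rounded, with 3 members called) and in 1 fit of all 9 libraries (adjusted p = 0.0892). That of *UGT2B7* was lost whichever library was left out (adjusted p between 0.0558 and 0.116) and with no filter (adjusted p = 0.0545). *UGT2B28* passed without del-4 replicate 2 (adjusted p = 0.043) and without del-56 replicate 1 (adjusted p = 0.00287).

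The neighbours of the cluster did not all move in one direction. Of the 40 other protein-coding genes within 2000000 bases, del-4 gave 22 that could be tested, 3 of them lower and 2 higher, and del-56 gave 23, with 5 lower and 2 higher. Their median log2 fold change was -0.12 for del-4 and -0.13 for del-56, and that of all tested genes of chromosome 4 outside the family was 0.01 and -0.02. *ODAM* rose by 1.21 in del-4 (adjusted p = 1.1e-05) and by 1.18 in del-56 (adjusted p = 3.9e-05), and *SLC4A4*, a bicarbonate cotransporter gene, rose by 0.90 (adjusted p = 1.6e-12) and by 0.85 (adjusted p = 1.3e-10) in the same order. *UTP3* fell by 0.32 (adjusted p = 7.4e-06) and fell by 0.31 (adjusted p = 4.4e-05). *TMPRSS11E*, the neighbour next to *UGT2B17*, stood at -0.32 in del-4 (adjusted p = 0.0869, limma) and fell by 0.60 in del-56 (adjusted p = 0.005, limma). The log2 fold changes of *UGT2B17* itself were -0.35 and -0.50, so this neighbour changed by a similar amount. Within the cluster lies *UGT2A3*, with a mean normalized count of at most 8.04 in any clone, and at its end *UGT2A1* and *UGT2A2*, likewise low.

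**Figure D4:**
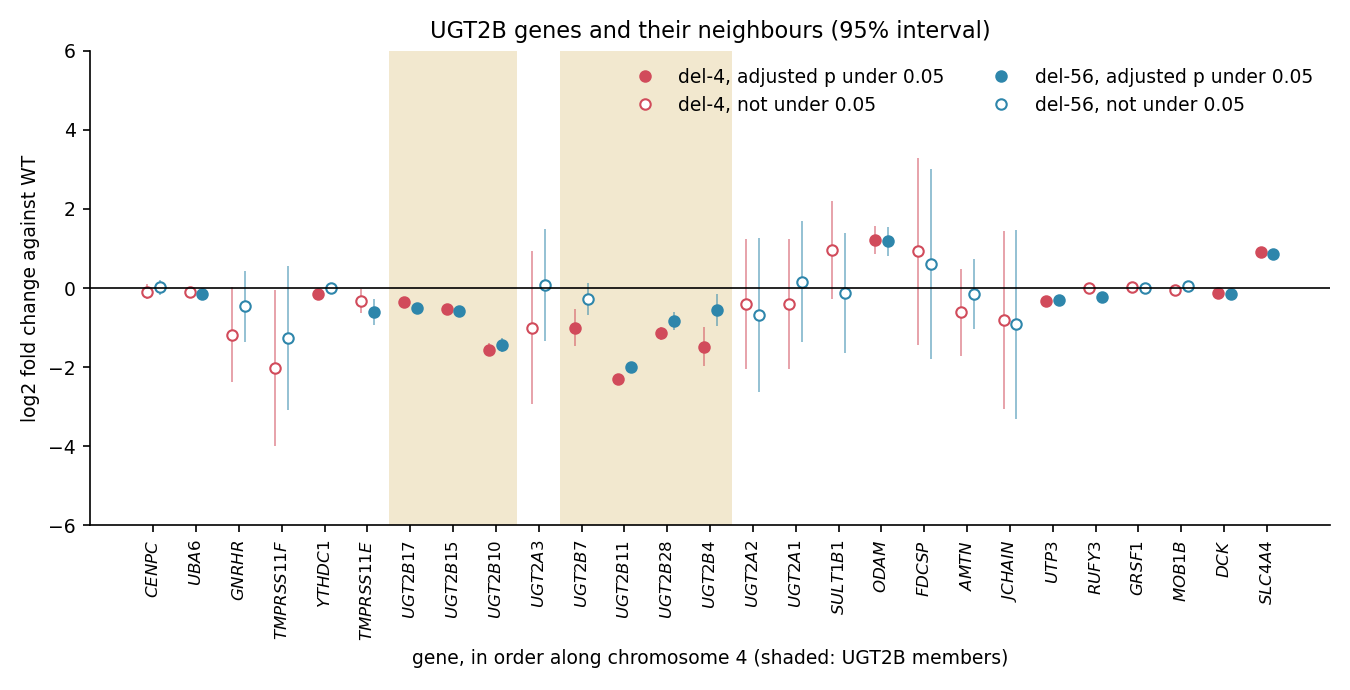
Log2 fold change against WT of the *UGT2B* genes (shaded) and the neighbours that could be tested in both clones, in order along chromosome 4, with 95% intervals from limma; filled points had an adjusted p under 0.05. The members lie at or below -0.28, while the neighbours lie on both sides of 0, with *SLC4A4* above it (0.90 in del-4, 0.85 in del-56), *GRSF1* close to it (0.03 and 0.01) and *UTP3* under it (-0.32 and -0.31).

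Other genes around glucuronidation were set beside the family, and where a pair of values follows, del-4 comes first. Of the genes that supply and use UDP-glucuronic acid, those that passed the test were lower, by little. *UGP2* makes UDP-glucose, *UGDH* oxidizes it to UDP-glucuronic acid, *UXS1* turns that into UDP-xylose and *GUSB* is the lysosomal enzyme that cleaves glucuronides. Of 4 genes tested, 2 fell in del-4 and 4 in del-56, and the medians of the log2 fold changes were -0.15 and -0.23. *UGP2* fell by 0.23 in del-4 (adjusted p = 4.7e-04), and fell by 0.34 (adjusted p = 4.3e-05) in del-56, and *UXS1* fell by 0.27 (adjusted p = 5.4e-04) and fell by 0.19 (adjusted p = 0.0128). *UGDH* stood at -0.06 in del-4 on the log2 scale (adjusted p = 0.189) and fell by 0.28 in del-56 (adjusted p = 9.8e-05), and *GUSB* stood at -0.01 (adjusted p = 0.832) and fell by 0.12 (adjusted p = 0.0187). *SLC35D1*, which carries UDP-glucuronic acid into the endoplasmic reticulum, had at most 4 reads in any library.

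Of 15 other UDP-glycosyltransferase genes, del-4 had 2 lower and none higher, and del-56 had 10 lower and 2 higher. Of the 15, 9 are *UGT1A* genes that share their last exons and were counted over nested spans, so they act as nearly 1 measurement. *UGT1A8*, one of them, had means of 491 in WT, against 402 in del-4 and 347 in del-56, with log2 fold changes of -0.29 (adjusted p = 0.0509) and -0.50 (adjusted p = 0.00275). *UGT8*, which makes galactosylceramide and not glucuronides, fell by 0.84 in del-4 (adjusted p = 1.1e-05), and fell by 2.07 (adjusted p = 1.2e-08) in del-56.

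Among the genes that carry conjugates across membranes, those that passed were lower in del-4 and on both sides in del-56. Of 8 genes tested, del-4 had 2 lower and none higher, and del-56 had 2 lower and 2 higher. *ABCC1*, an export pump for glucuronides and glutathione conjugates, fell by 0.36 (adjusted p = 7.7e-07) and fell by 0.37 (adjusted p = 5.3e-06), and *ABCG2*, a pump for sulfated steroids, fell by 1.08 (adjusted p = 0.00361) and fell by 0.95 (adjusted p = 0.0096) from a WT mean of 103. *ABCC4*, another export pump, stood at -0.06 (adjusted p = 0.281) and rose by 0.18 (adjusted p = 0.00374). *SLCO1B1*, an uptake carrier with at most 36 reads in any library, stood at 0.91 (adjusted p = 0.297) and rose by 2.38 (adjusted p = 0.00291).

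Among other routes that remove androgens, 14 genes were tested against WT, and del-4 had 2 higher and none lower, and del-56 had 1 higher and 4 lower. Between the deletion clones, 3 of 15 tested were higher in del-4, none was lower and 12 did not pass. *AKR1C2*, which reduces dihydrotestosterone to a weaker androgen, had means of 941 in WT, against 1039 in del-4 and 249 in del-56, with a log2 difference of 0.12 in del-4 (adjusted p = 0.489), and it fell by 1.92 in del-56 (adjusted p = 3.8e-09) and was higher in del-4 than in del-56 by 2.04 (adjusted p = 1.7e-08). *AKR1C1* had 0.20 in del-4 (adjusted p = 0.378) and fell by 1.75 in del-56 (adjusted p = 5.8e-06), though its sequence is close to that of *AKR1C2* and reads may be shared.

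On the side of androgen synthesis, 2 of 11 tested genes were higher and 3 lower in del-4. In del-56, of 14 tested, 4 were higher and 4 lower. *HSD3B1*, whose enzyme takes part in making androgens from their precursors, had a WT mean of 26.2 and rose by 0.95 (adjusted p = 0.0403) and by 1.95 (adjusted p = 8.5e-05). *CYP11A1*, which starts steroid synthesis from cholesterol, fell by 1.17 (adjusted p = 1.9e-06) and fell by 0.66 (adjusted p = 0.00169). *AKR1C3*, which makes testosterone from androstenedione, had -0.33 in del-4 (adjusted p = 0.199) and fell by 1.66 in del-56 (adjusted p = 3.0e-05).

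Among 16 transcription factors linked to *UGT2B* genes, 15 were tested in each clone, with 5 higher and 2 lower in del-4, against 3 and 2 in del-56. *FOXA1*, a forkhead factor of luminal prostate cells, had log2 fold changes of -0.02 (adjusted p = 0.759) and 0.07 (adjusted p = 0.258). *PPARA* rose by 0.23 (adjusted p = 0.0131) and by 0.48 (adjusted p = 3.0e-05), and *NR1I3* fell by 0.29 (adjusted p = 0.00183) and fell by 0.30 (adjusted p = 0.00136).

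Genes known to respond to androgen did not move in one direction. Of 8 androgen-induced genes, each clone had 5 higher and 2 lower, but not all of these were the same genes. *KLK3* rose by 0.25 in del-4 (adjusted p = 2.9e-04, limma) and fell by 0.39 in del-56 (adjusted p = 1.1e-05, limma). *TMPRSS2* fell by 0.57 in del-4 (adjusted p = 7.2e-08, limma) and rose by 0.14 in del-56 (adjusted p = 0.0268, limma). *PMEPA1* rose by 0.54 (adjusted p = 1.8e-07) and by 0.53 (adjusted p = 2.9e-07), and *KLK2* fell by 0.71 (adjusted p = 4.8e-08) and fell by 0.53 (adjusted p = 8.2e-06). Of 4 androgen-repressed genes, 1 was higher and 1 lower in del-4 and 2 were lower in del-56. *OPRK1*, an opioid receptor gene repressed by androgen, fell by 4.98 (adjusted p = 1.1e-09) and fell by 2.98 (adjusted p = 2.7e-06) from a WT mean of 343.

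**Figure D5:**
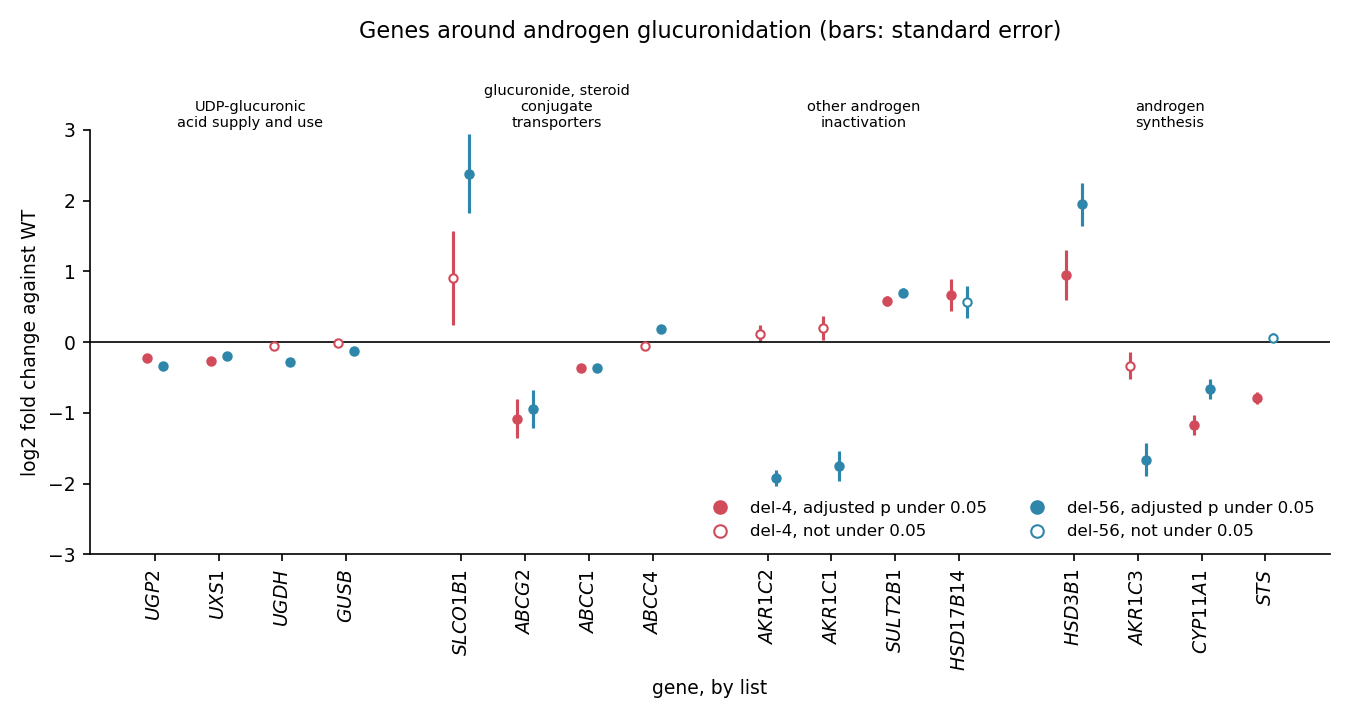
Log2 fold change against WT of up to 4 genes each from the lists of supply, conjugate transport, other androgen inactivation and androgen synthesis, with standard errors from limma; filled points had an adjusted p under 0.05. The supply genes lie between -0.34 and -0.01, whereas *AKR1C2* and *AKR1C1* lie at -1.92 and -1.75 in del-56 and near 0 in del-4.

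Because hepatocytes express most of the *UGT2B* genes at high levels, liver markers were set beside the family. The summed normalized count of 7 hepatocyte markers was 885 to 985 in WT, 1894 to 2204 in del-4 and 2724 to 2784 in del-56, and 5 of the 7 were above 3 reads, with *APOA2* and *CYP3A4* at or below 3 reads in every library. Of the 5 tested, 2 were higher and 1, *ALB*, lower in del-4, and 4 were higher in del-56. *TTR*, the most abundant of them, rose by 1.51 in del-4 (adjusted p = 1.1e-10), and by 1.71 (adjusted p = 1.4e-10) in del-56. Relative to WT, each deletion clone thus had a larger liver marker sum and lower *UGT2B* means. *TTR* and *CYP2E1* were the largest parts of that sum in every clone. *ALB* fell by 0.82 in del-4 (adjusted p = 0.00508, limma) and rose by 1.62 in del-56 (adjusted p = 6.3e-07, limma). The liver sum was larger in del-56, where the median log2 fold change of the *UGT2B* genes was -0.58, against -1.15 in del-4. *UGT2B15* and *UGT2B17* had lower means in del-56 than in del-4 and the other members higher means, and not all differences between these clones passed. The part of the liver markers in the result was not tested.

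The genes whose profile over the 9 libraries was most like that of a member were found by the root mean square difference of log2 values centred on their mean. The search took 14811 genes with a symbol, outside the family, whose mean was at least 10. *NIPSNAP3A* on chromosome 9 came closest to *UGT2B17* (0.026), *SLC5A2* on chromosome 16 to *UGT2B15* (0.052), *SLITRK6* on chromosome 13 to *UGT2B10* (0.125) and *CLDN3* on chromosome 7 to *UGT2B11* (0.205). *KCNG1* on chromosome 20 came closest to *UGT2B7* (0.081), *LITAF* on chromosome 16 to *UGT2B28* (0.163) and *LFNG* on chromosome 7 to *UGT2B4* (0.182). Within the family, *UGT2B15* and *UGT2B17* were the most alike (0.082) and *UGT2B11* and *UGT2B17* the least (0.847). None of the 3 genes most like any member was a gene of chromosome 4.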

How the data were processed

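The authors sequenced polyA RNA of the WT clone and of both deletion clones, 3 cultures each, with strand-specific libraries and paired-end reads. Per the submitters' processing notes and the methods of the study, reads were aligned to GRCh38 with STAR 2.71a, and bedtools 2.27.1 counted them on protein-coding genes of GENCODE version 38. The deposited signal is the normalized count: the authors divided each read count by the size factor of its library. In each library 100.0% of values were whole multiples of 1 step (tolerance 1e-04), so reads were recovered. Depth was 91074556 to 118877134 reads on genes per library. Replicates are cultures of 1 clone, and p-values measure only the spread between them. Counting error only is covered by floors of 3 reads.

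Of 19984 genes, 19923 were matched to GENCODE version 44. Each pair of clones was compared with limma 3.58.1 in R 4.3.3 on log2(value + 1), with the variance trended on the mean, and genes needed a mean of 1 or more in the 6 libraries. Benjamini-Hochberg adjustment covered all genes tested, and a call needed an adjusted p under 0.05. Fold changes on this scale understate those of low genes. The procedure was tested on simulated data. Alternatives were pseudocounts of 0.5 and 5, no filter, a mean of at least 10, rescaling, quantile normalization, 1 fit of 9 libraries, replicate blocks, DESeq2 1.42.0 and edgeR 4.0.16 (TMM) on the recovered reads, and leaving out each library. Sequences were compared with Biopython 1.88 in Python 3.11.15.

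The 7 members, the gene lists and the tests were chosen with earlier results of these data known. The rule for names outside the family allowed, from each list, the 4 genes with the largest mean change among those with a mean of at least 10 and a call in at least 1 clone, the supply and transport genes, and the 3 genes most like each member. *FOXA1*, *GRSF1*, *KLK3*, *ODAM*, *SLC4A4*, *TMPRSS11E*, *UTP3*, *UGT2A1*, *UGT2A2*, *UGT2A3* and the markers fall outside it and were named with their values known. Some genes that the rule allows appear only in the plot of genes by list. Some genes of the lists are not reported here one by one. Replicate numbers were not used as pairs, since the correlations of deviations of same-numbered libraries lay between -0.05 and 0.06.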

Additional observations from a re-analysis of the deposited data

Results flagged for a closer look

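The change against the shared WT libraries differed between the deletion clones for 4 of the 7 genes, 1 higher and 3 lower in del-4. This is the direct comparison of del-4 with del-56 in limma with Benjamini-Hochberg adjustment over all genes. Of 17447 genes tested, 10.9% were higher and 9.0% lower in del-4. The log2 difference, del-4 minus del-56, was 0.15 for *UGT2B17* (adjusted p = 0.0461, range over alternatives 0.00337 to 0.248), -0.73 for *UGT2B7* (adjusted p = 0.0373, range 0.0194 to 0.116), -0.29 for *UGT2B11* (adjusted p = 0.0133, range 8.0e-04 to 0.102) and -0.92 for *UGT2B4* (adjusted p = 0.0178, range 0.00725 to 0.0861). All 3 del-4 libraries lay below all 3 del-56 libraries for *UGT2B7* and *UGT2B4*, and the libraries overlapped for *UGT2B17* and *UGT2B11*. How many of all genes lay entirely below in this comparison was not computed.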

How the results depend on the processing

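All 7 members stayed lower in del-4 under each of the 16 alternatives, and their log2 fold changes ranged from -2.37 to -2.24 for *UGT2B11* and from -0.42 to -0.28 for *UGT2B17*. In del-56 the number of members called was 5 or 6, and the loss was that of *UGT2B4*, whose adjusted p rose to at most 0.0999. Between del-4 and del-56 the count of 4 was 2 with no filter on low values, and 0 to 4 when 1 library was left out. The cause was not tested. With the replicate number as a block, 7 members were called lower in del-4 and 6 in del-56, as without it, and between the clones *UGT2B28* was called as well (log2 difference -0.31, adjusted p = 0.0089), which gives 5. Same-numbered libraries did not deviate together, and 5 of 9 libraries correlated best with their own number. The recovered reads gave 3520 lower and 3529 higher genes in del-4 with edgeR, and 3525 and 3418 in del-56. Between the clones 1571 genes were lower and 1898 higher, and 2383 and 1382 after rescaling to the same total. *UGT2B7* and *UGT2B4*, with at most 194 reads in a library, are the members least well measured. Shared reads between paralogs, introns and the antisense gene over *UGT2B11* appear to be part of the deposited counts and could not be removed.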
